A study of Mus musculus with 8 samples.

Results

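Macrophage identity transcription factors are the DNA-binding proteins that make and keep a cell a macrophage. The group examined comprised 9 factors, Spi1, Cebpa, Cebpb, Maf, Klf2, Klf4, Bhlhe40, Zeb2 and Runx1, and a factor was measured where an array feature carried its symbol and no other. That held for 8 of the 9, among 22180 genes measured in this way. Zeb2 had no such feature, and its 2 shared features are given separately. CD11b+ myeloid cells were collected with magnetic beads from the ascitic fluid of female C57BL/6 mice that had been inoculated intraperitoneally, at 8 weeks of age, with ID8 cells, a mouse ovarian cancer line. Mice of the anti-LIF group (n = 4, mice 5 to 8) received a neutralizing antibody against leukemia inhibitory factor (LIF) 2 times a week for 25 days from day 12 after inoculation, as the labels give it, whereas a legend of the study gives a later start for ID8 tumors. Mice of the control group (n = 4, mice 1 to 4) carried the same tumor and are labelled untreated, although the methods describe a control IgG for control animals. Total RNA of each mouse went on 1 Affymetrix Mouse Gene 2.1 ST array, and the values are RMA intensities on the log2 scale, where a difference of 1 is a doubling.

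PU.1, encoded by Spi1, belongs to the ETS family and opens the enhancers of myeloid genes, while RUNX1 acts before it in blood development and C/EBPα directs progenitors into the myeloid lineage. Other factors shape the mature cell. C/EBPβ, c-MAF, KLF2, KLF4, BHLHE40 and ZEB2 set its activation and tissue programs. LIF signals through LIFR and gp130 to STAT3.

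CD11b selection takes macrophages, monocytes, granulocytes and some lymphoid cells. Itgam, which encodes CD11b, averaged 8.49 ± 0.22 in anti-LIF cells and 8.67 ± 0.36 in control cells (SD, n = 4 each), and the macrophage genes Lyz2 and Cd68 were bright in every array. Features of ovarian tumor or mesothelial cells such as Wt1 (9.43 to 9.89 in anti-LIF cells, 9.10 to 9.67 in control cells) were also bright in these fractions. Over all features the arrays correlated at 0.960 to 0.974 within a group and 0.935 to 0.964 across groups (Pearson). Control mouse 3 was the highest of the 8 arrays for 20.7% of all genes, more than any other array. The files carry no background or detection value, so a low intensity was not read as absence, and precision is limited by 4 arrays a group. Nothing in the labels places any 2 arrays in a common batch.

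The sequences before the starts of Klf4 and Klf2 are shown because these related Krüppel-like factors had differences of opposite sign, and that of Cebpb because it was the other factor with a positive difference. Each is the 250 bases upstream of the RefSeq start on GRCm38.p6. Klf4 lies on the minus strand (chr4:55532476-55532725), Klf2 on the plus strand (chr8:72318812-72319061) and Cebpb on the plus strand (chr2:167688665-167688914). Capitals mark CACGTG, the E-box that BHLHE40 binds, or CACCC, a core that Krüppel-like factors bind, on either strand. No other pattern for Krüppel-like factors was searched.
Klf4: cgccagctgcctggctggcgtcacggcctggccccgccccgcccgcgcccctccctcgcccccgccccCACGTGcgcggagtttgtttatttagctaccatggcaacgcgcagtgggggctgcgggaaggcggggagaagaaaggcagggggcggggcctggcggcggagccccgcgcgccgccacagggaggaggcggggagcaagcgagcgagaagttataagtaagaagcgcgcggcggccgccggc
Klf2: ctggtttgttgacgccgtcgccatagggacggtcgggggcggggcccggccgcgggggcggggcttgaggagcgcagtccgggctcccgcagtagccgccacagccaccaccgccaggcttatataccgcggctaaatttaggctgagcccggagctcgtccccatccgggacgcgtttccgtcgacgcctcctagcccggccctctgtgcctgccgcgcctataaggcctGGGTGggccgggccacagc
Cebpb: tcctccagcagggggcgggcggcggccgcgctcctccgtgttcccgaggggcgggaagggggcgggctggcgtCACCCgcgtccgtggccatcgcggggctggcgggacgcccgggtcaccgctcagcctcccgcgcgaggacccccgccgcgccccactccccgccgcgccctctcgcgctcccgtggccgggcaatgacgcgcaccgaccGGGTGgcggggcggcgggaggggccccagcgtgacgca

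The Klf4 window held 1 CACGTG, which starts 182 bases before the gene's start, and no CACCC. The Klf2 window held 1 CACCC core, read here as its reverse complement 19 bases before the start, and the Cebpb window held 2, at 177 and 38 bases. Over all 32851 promoter windows of that length, 6.02% held CACGTG and 52.0% held CACCC. None of these 3 windows matched GAGGAA (PU.1, 23.3% of all windows), TTNNGNAA (C/EBP, 36.8%), ACCACA (RUNX, 14.0%) or TTCNNNGAA (STAT, 7.02%), each searched on both strands. The last pattern and that for C/EBP leave bases open and can overlap each other. Windows were found for 6 of the 9 factors, 10 windows in all. A second start of Runx1 also held CACGTG, 71 bases before it. Among the other windows, CACCC occurred for Cebpa, Runx1 and Zeb2, and GAGGAA for Runx1 and Zeb2. TTCNNNGAA and TTNNGNAA occurred only in windows of Zeb2, and ACCACA in none of the 10. A match in letters is not a binding site.

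Of the 8 factors measured, 3 were lower in anti-LIF cells at an adjusted p under 0.1 (limma, adjusted over all genes). They were Klf4, Maf and Bhlhe40. Among all genes tested the share called lower was 11.0%. None of the 8 was called higher, where the share over all genes was 5.79%, so that 3 of 8 passed in either direction against 16.8% of all genes. At an unadjusted p under 0.05 limma gave 4 lower and 1 higher factor, 5 of 8 against 26.7% of all genes in either direction. The median log2 fold change, anti-LIF minus control, was -0.39 over the 8 factors and 0.03 over all genes, and 6 of the 8 differences were below 0. All 4 anti-LIF arrays lay below all 4 control arrays for Klf4 and Maf, 2 of 8 factors, against 18.5% of all genes with groups that did not overlap in either direction. All 8 factors had a mean level above that of the median gene of control arrays. In a fit of only the genes above the median level, 3100 genes were lower and 1122 higher. Among all 22180 genes 2448 were lower and 1284 higher. The fit of brighter genes held fewer genes, so its shares called lower and called higher were both larger. Of the 8 factors 3 were lower and 1 higher there. The shares over all genes include dimmer genes and are therefore too low a comparison for factors of this level. The same holds for the lists below whose mean level lies above the median gene. These counts describe a list chosen with earlier results known and are not a test of it.

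**Figure D1:**
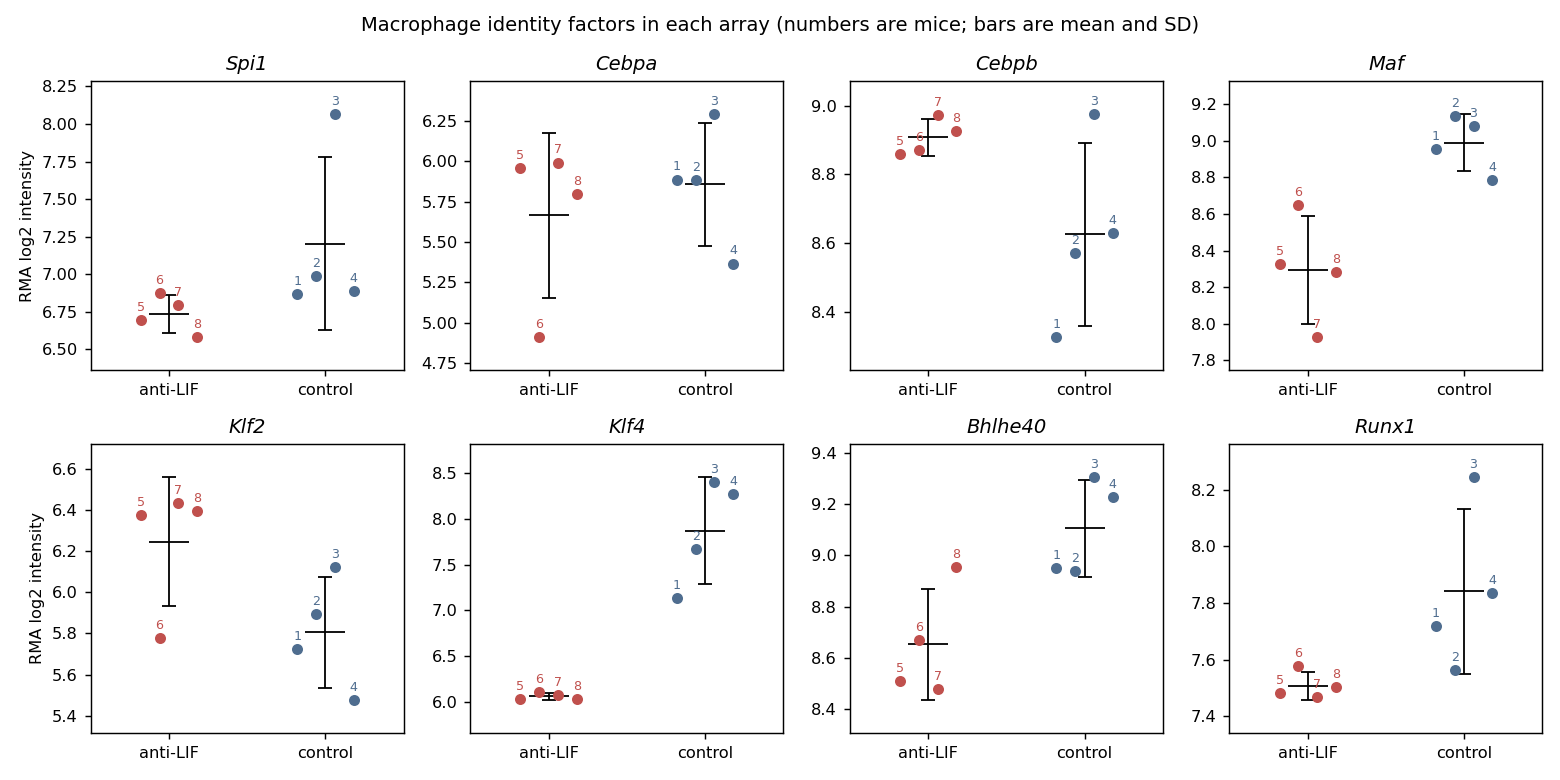
RMA log2 intensity of the 8 measured factors in each array, anti-LIF mice left and control mice right, with mouse numbers beside the points and bars for mean and SD (n = 4 each). Klf4 and Maf are the panels in which the groups do not overlap, and control mouse 3 is the highest control point in 7 of 8 panels.

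Klf4 fell most. This zinc finger factor drives monocyte differentiation and takes part in alternative activation of macrophages. Its intensity was 6.04, 6.10, 6.08 and 6.03 in anti-LIF mice 5 to 8, against 7.14, 7.67, 8.41 and 8.27 in control mice 1 to 4. The anti-LIF values were nearly alike (SD 0.036), whereas the control values were spread (SD 0.59), and every anti-LIF value lay below every control value. The log2 fold change was -1.81 ± 0.24 (SE, 95% interval -2.33 to -1.29), a 3.51-fold lower level in anti-LIF cells (limma adjusted p = 0.0021). With all 70 ways of splitting the 8 arrays into 4 and 4, an exact two-sided permutation test gave p = 0.029, the smallest it allows. Every alternative run kept the call, with log2 fold changes of -2.06 to -1.63 and adjusted p of 0.00040 to 0.0090.

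Maf was lower too. c-MAF is a basic leucine zipper factor that drives Il10 and many genes of alternatively activated macrophages. Averaged over its 2 features it measured 8.32, 8.65, 7.93 and 8.28 in anti-LIF mice, against 8.95, 9.13, 9.08 and 8.78 in control mice. The highest anti-LIF value stayed below the lowest control value, and the log2 fold change was -0.69 ± 0.16 (SE, 1.62-fold lower, limma adjusted p = 0.021, exact permutation p = 0.029). Its features differed in what they showed. The brighter one read 9.15, 9.39, 8.56 and 9.03 in anti-LIF mice, against 10.25, 10.42, 10.36 and 9.99 in control mice, with a log2 fold change of -1.22 (limma adjusted p over features 0.0096). The dimmer one read 7.50, 7.90, 7.29 and 7.53 in anti-LIF mice, against 7.66, 7.84, 7.81 and 7.58 in control mice. There the groups overlapped and the log2 fold change was -0.17 (limma adjusted p = 0.56), so the Maf call rests on the brighter feature.

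Bhlhe40 was called with less margin. BHLHE40 is a basic helix-loop-helix repressor that restrains Il10 and, in mice, supports proliferation of peritoneal macrophages. It measured 8.51, 8.67, 8.48 and 8.95 in anti-LIF mice, against 8.95, 8.94, 9.31 and 9.23 in control mice. Mouse 8 of the anti-LIF group reached the level of control mice 1 and 2, so the groups overlapped. The log2 fold change was -0.45 ± 0.15 (SE, limma adjusted p = 0.077, exact permutation p = 0.086). The sign held in all 16 alternatives, but 8 of them ended the call, among them quantile normalization again (-0.31, limma adjusted p = 0.21) and leaving out anti-LIF mouse 5, 6 or 7 or control mouse 3 or 4.

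The lineage factors Spi1 and Runx1 were not called. Spi1 measured 6.70, 6.88, 6.80 and 6.58 in anti-LIF mice, against 6.87, 6.99, 8.06 and 6.89 in control mice. Control mouse 3 stood well above the other controls, which were close to the highest anti-LIF mouse. The log2 fold change was -0.46 ± 0.24 (SE, limma adjusted p = 0.24, exact permutation p = 0.057), and -0.18 without control mouse 3. Runx1 measured 7.48, 7.58, 7.47 and 7.50 in anti-LIF mice, against 7.72, 7.56, 8.24 and 7.84 in control mice. Only control mouse 2 lay within the anti-LIF range. Its log2 fold change was -0.33 ± 0.15 (SE, limma adjusted p = 0.18, exact permutation p = 0.057), and no alternative called it.

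Cebpa and Cebpb, basic leucine zipper factors of one family, had differences of opposite sign and neither passed the test. Cebpb, which is induced by cytokines and supports Arg1 transcription, measured 8.86, 8.87, 8.97 and 8.93 in anti-LIF mice, against 8.33, 8.57, 8.97 and 8.63 in control mice. Control mouse 3 was as high as the highest anti-LIF mouse, and the other 3 controls were below all 4 of them. The log2 fold change was 0.28 ± 0.15 (SE, limma adjusted p = 0.24, exact permutation p = 0.14). It passed after quantile normalization again (0.43, limma adjusted p = 0.086) and just passed without control mouse 3 (0.40, limma adjusted p = 0.0999). Cebpa measured 5.96, 4.91, 5.99 and 5.80 in anti-LIF mice, against 5.89, 5.88, 6.29 and 5.37 in control mice. Anti-LIF mouse 6 was the lowest of all, the log2 fold change was -0.19 ± 0.25 (SE, limma adjusted p = 0.67, exact permutation p = 0.63), and without that mouse it was 0.059. The interval of -0.75 to 0.36 leaves room for a change in either direction.

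Klf2, which restrains inflammatory activation of myeloid cells and keeps T cells quiescent, had the other positive difference. It measured 6.38, 5.78, 6.44 and 6.39 in anti-LIF mice, against 5.73, 5.89, 6.12 and 5.48 in control mice. Anti-LIF mouse 6 lay among the controls and the other 3 anti-LIF mice were above all of them. The log2 fold change was 0.44 ± 0.18 (SE, limma adjusted p = 0.15, exact permutation p = 0.086). Without anti-LIF mouse 6 it was 0.60 and passed (limma adjusted p = 0.050). The difference Klf2 minus Klf4 within an array, a pair chosen after the values were seen, was 0.34, -0.33, 0.36 and 0.37 in anti-LIF mice, against -1.41, -1.78, -2.29 and -2.79 in control mice. These values did not overlap, and the difference moved by 2.25 log2 units, most of it from Klf4.

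**Figure D2:**
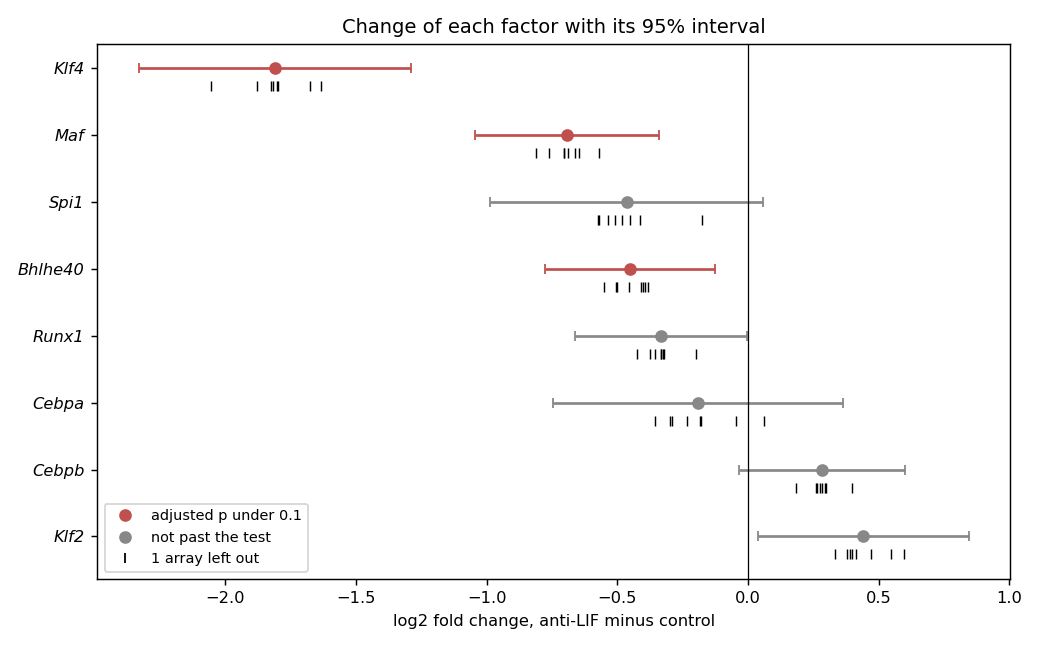
Log2 fold change of each factor, anti-LIF minus control, with its 95% interval from limma (red, adjusted p under 0.1; grey, not past the test) and ticks for the values with 1 array left out. The interval of Klf4, -2.33 to -1.29, lies apart from 0, while the tick for Spi1 nearest to 0 is that without control mouse 3 and the ticks for Cebpa fall on both sides of 0.

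Zeb2, a zinc finger homeobox repressor that in mice maintains tissue macrophage identity, could be read only through features shared with another transcript. The feature shared with the antisense gene Zeb2os read 6.38, 5.78, 5.92 and 6.08 in anti-LIF mice, against 6.17, 6.24, 7.28 and 6.78 in control mice. The feature shared with Mir5129 read 7.36, 7.16, 7.26 and 7.44 in anti-LIF mice, against 7.06, 7.42, 8.13 and 7.71 in control mice. Groups overlapped in both, with log2 fold changes of -0.58 (limma adjusted p over features 0.20) and -0.28 (0.47), where 12.5% of all features passed. Signal of the partner transcript cannot be separated from Zeb2 in them.

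**Figure D3:**
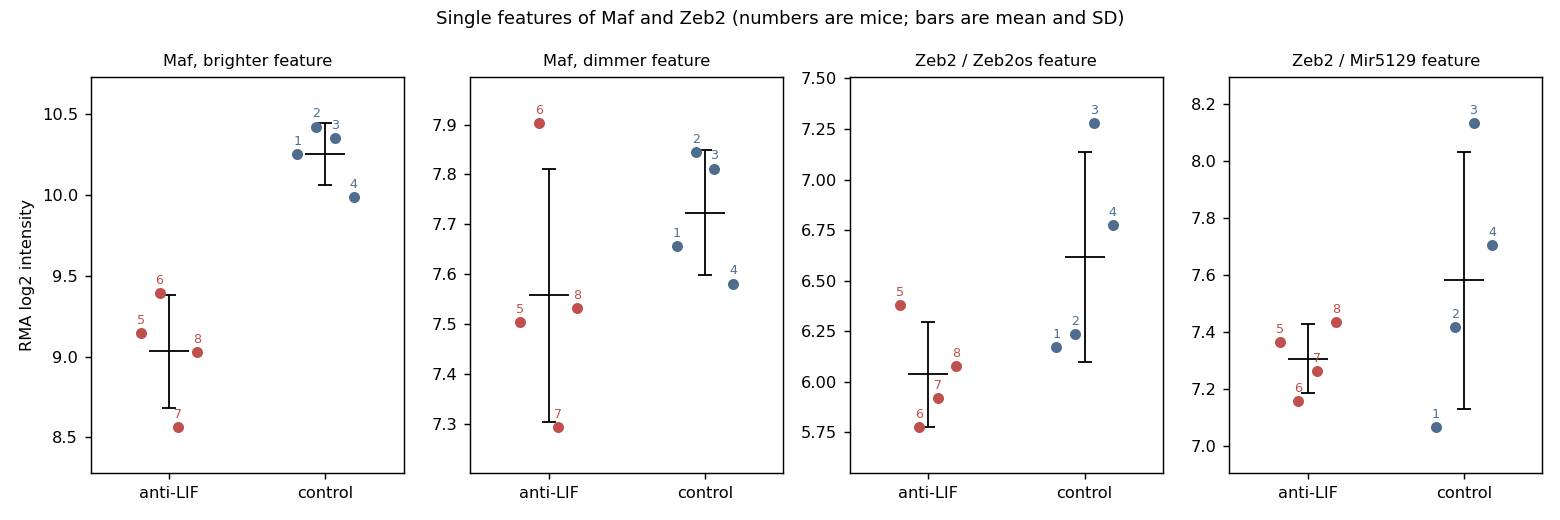
RMA log2 intensity of the 2 Maf features and the 2 shared Zeb2 features in each array, anti-LIF mice left and control mice right, with bars for mean and SD (n = 4 each). The groups separate in the brighter Maf feature and overlap in the other 3 panels.

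A single mouse weighed on several of these factors. Control mouse 3 was the highest of 8 arrays for 6 of the 8 factors and the highest control for 7 of 8, and it was the highest control for 31.7% of all genes. Without it 2 factors remained lower (Klf4 and Maf), 1 was higher (Cebpb) and Bhlhe40 was not called. The same mouse had the highest mean over the 10 macrophage markers (9.70). That mean was 8.32, 8.23, 8.47 and 8.49 in anti-LIF mice, against 8.93, 9.16, 9.70 and 8.87 in control mice, and the groups did not overlap.

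Macrophage markers and some markers of other cells differed as well, and their part in the values of the factors was not tested. The counts stand beside 11.0% of all genes called lower and 5.79% called higher. Those shares include dimmer genes and are too low a comparison for bright lists such as the macrophage markers. A single call in a short list is not read as a change of that cell type. In bulk cells, fewer cells of a type and less RNA per cell cannot be told apart. Of 10 macrophage markers 7 were lower and none higher, with a median log2 fold change of -0.78, and Cd14 (-1.58), Cd68 (-1.41) and Mertk (-0.90) fell most while Csf1r (-0.33) and Lyz2 (-0.09) did not pass. The count was 4 of 10 without anti-LIF mouse 5, control mouse 2 or control mouse 3. Of 10 markers of resident peritoneal macrophages none was called in either direction, with a median of 0.40 and ranges of the mean level of 5.08 to 5.95 in anti-LIF cells and 4.77 to 5.40 in control cells. Among 6 monocyte markers Ly6c2 was higher (1.73) and Vcan lower (-1.02). Their mean level was 6.66 to 7.58 in anti-LIF cells and 6.42 to 7.26 in control cells. Anti-LIF mouse 6 gave the 7.58, and mice 5, 7 and 8 lay between 6.66 and 6.71. Among 11 neutrophil markers S100a8 (-1.32) and Mmp8 (-1.25) were lower, and the mean level was 4.75 to 5.00 in anti-LIF cells and 4.98 to 5.36 in control cells. T and NK cell markers, a population in which Klf2 is active, included 2 of 10 higher, Nkg7 (0.85) and Cd8a (0.76). None was called lower, and log2 fold changes in this list ran from -1.18 to 1.07. Mean levels were 3.90 to 4.52 in anti-LIF cells and 3.75 to 4.11 in control cells, below the median gene (4.63 and 4.57). Of the B and plasma cell markers 1 of 9 was higher, Jchain (3.20), the median log2 fold change was 0.25, and the mean level, to which Jchain contributed most of the difference, was 4.07 to 4.26 in anti-LIF cells and 3.47 to 3.80 in control cells. Tumor and mesothelial markers had 3 higher and 2 lower of 12 (8.20 to 8.46 in anti-LIF cells, 7.90 to 8.40 in control cells). The remaining calls were 1 of 7 dendritic markers higher (Zbtb46, 0.62), 1 of 6 eosinophil, mast cell and basophil markers higher (Cpa3, 0.46), 1 higher and 1 lower of 5 endothelial markers (Kdr 0.60, Cdh5 -0.57) and 1 of 5 platelet markers lower (Ppbp, -2.96).

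Immediate-early genes, which cells switch on within minutes of stimulation or handling, were lower beside Klf4. Of 19 such genes 11 were lower and none higher, against 11.0% and 5.79% of all genes, with a median log2 fold change of -0.91. Those shares include dimmer genes and are too low a comparison for a list of this level. Egr2 (-1.91), Egr1 (-1.36), Fosb (-1.35) and Nr4a1 (-1.30) had the greatest differences. The mean of the 19 was 7.08, 7.10, 7.11 and 7.48 in anti-LIF mice, against 7.51, 8.01, 8.24 and 8.07 in control mice. The order of the 4 control mice was that of Klf4, with mouse 1 lowest and mouse 3 highest in both. Control mouse 3 was also the highest control for 31.7% of all genes. The anti-LIF mice were all below the controls. Their Klf4 values, 6.03 to 6.10 (SD 0.036), were too alike for an order among them to be compared. The part of the immediate-early genes in the Klf4 difference was not tested. The 3 genes whose values followed Klf4 most closely over the 8 arrays were Btf3l4 (Pearson r = 0.993), Clec4d (0.992), a C-type lectin receptor of myeloid cells, and Slc40a1 (0.990), the iron exporter ferroportin. Those closest to Maf were Zcchc9 (0.991), Rbbp5 (0.984) and Psmd1 (0.984). These coefficients describe arrays that fall into 2 groups, which any gene that separates them shares.

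**Figure D4:**
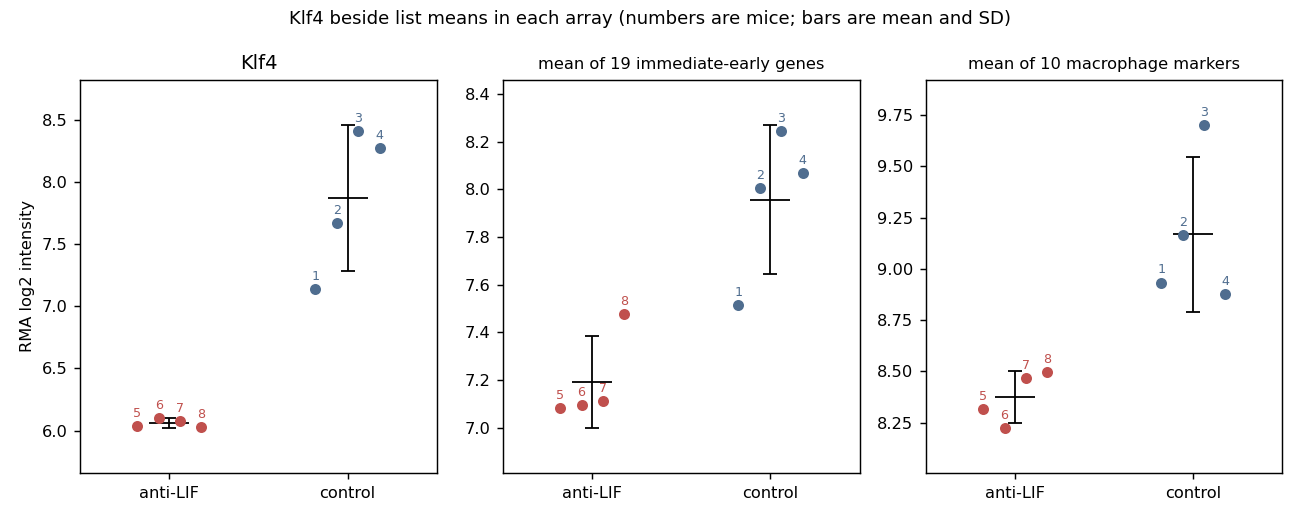
RMA log2 intensity of Klf4, the mean of 19 immediate-early genes and the mean of 10 macrophage markers in each array, anti-LIF mice left and control mice right, with bars for mean and SD (n = 4 each). The groups do not overlap in any panel, and control mouse 3 is highest in all 3.

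Relatives of the factors in their own DNA-binding families were measured for 44 of 47 genes. Of these 21 were lower and 3 higher, against 11.0% and 5.79% of all genes, with a median log2 fold change of -0.35. The count of lower relatives was 9 without control mouse 2, 11 without anti-LIF mouse 7 or 8, 12 without control mouse 3 and 13 without anti-LIF mouse 6. The ETS family of Spi1 held most of the lower genes, 11 of its 16 other members, and 1 was higher. Spic, a PU.1 relative of red pulp macrophages, was lower (log2 fold change -1.37, limma adjusted p = 0.038) and its groups overlapped. Erf, an ETS repressor downstream of ERK, read 5.19, 5.07, 5.18 and 5.09 in anti-LIF mice, against 6.37, 6.55, 6.53 and 6.49 in control mice. Its log2 fold change was -1.35 ± 0.11 (SE, limma adjusted p = 0.00025), with the spread in each group far below the gap between them. Ets2 (-0.91) was lower too, and Spib, which acts in B cells and plasmacytoid dendritic cells, was higher (0.66, limma adjusted p = 0.029). Spib was dim, averaging 3.65 in anti-LIF cells and 2.99 in control cells, below the median gene (4.63 and 4.57).

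Among the Krüppel-like factors 6 of the 15 other than Klf2 and Klf4 were lower, led by Klf6 (-0.85) and followed by Klf5, Klf3, Klf10, Klf11 and Klf9 between -0.67 and -0.55. Klf1, the erythroid member, was higher (0.45, limma adjusted p = 0.049). Its means, 4.62 in anti-LIF cells and 4.16 in control cells, lay below the median gene (4.63 and 4.57). Klf4 had a larger difference than any of the other 16 Krüppel-like genes measured. Of the other C/EBP genes Cebpg (-1.14, limma adjusted p = 0.0028), a partner without an activation domain, and the stress factor Ddit3 (-0.73) were lower, and 2 did not pass. Among Maf relatives the small Maff was lower (-0.60) and Mafa higher (0.46). Mafa too was below the median gene, at 4.56 in anti-LIF cells and 4.10 in control cells. Cbfb, the partner subunit of RUNX1, was lower (-0.43, limma adjusted p = 0.062), and Runx3 (-0.28, adjusted p = 0.52) did not pass. Bhlhe41, the closest relative of Bhlhe40, differed by -0.35 and Zeb1 by 0.35, with limma adjusted p of 0.11 for each.

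**Figure D5:**
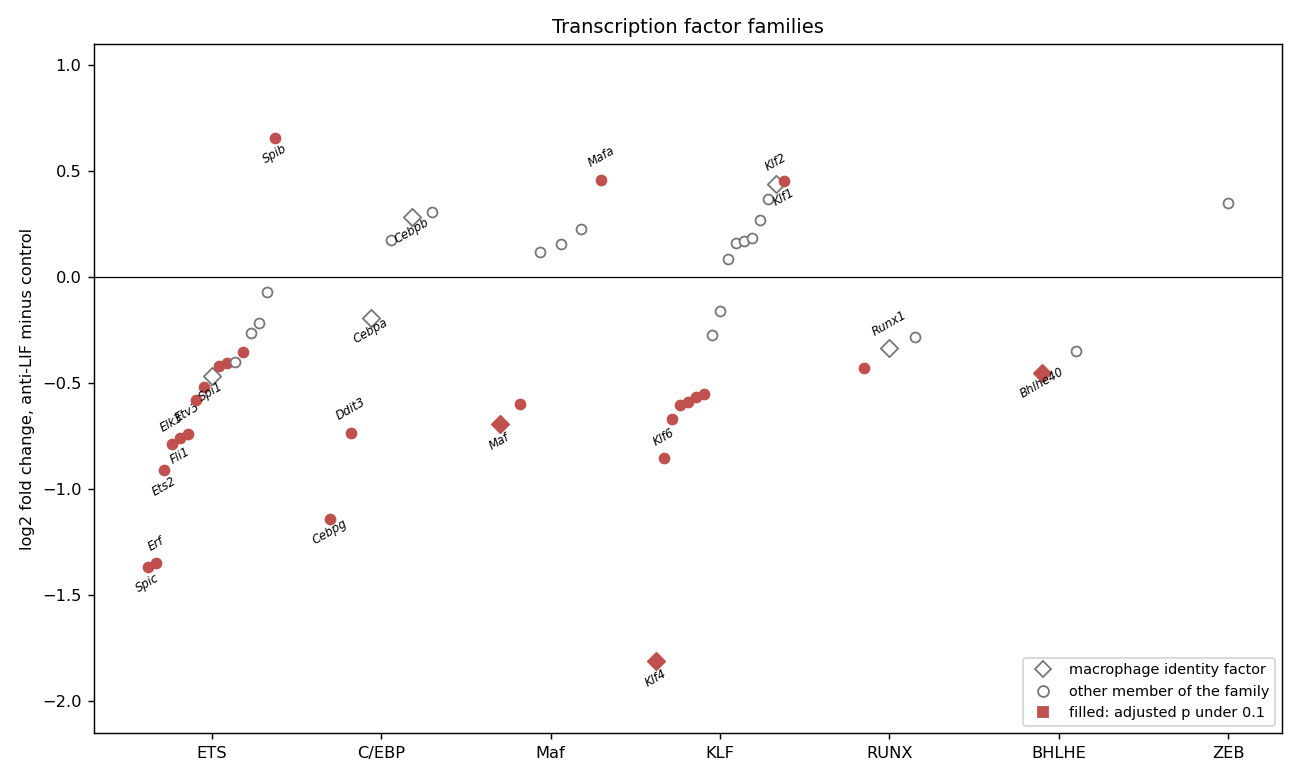
Log2 fold change, anti-LIF minus control, of the 8 measured factors (diamonds) and their 44 measured relatives (circles) by DNA-binding family, filled where the limma adjusted p is under 0.1, with names for the factors, the higher calls and the strongest lower calls. Klf4 at -1.81 is the lowest point of all, and most filled points lie below 0.

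Other transcription factors of macrophage and monocyte subsets were lower in 10 of 21 genes and higher in 1, against 11.0% and 5.79% of all genes. Their median log2 fold change was -0.52. The members that fell most were Egr2 (-1.91) and Nr4a1 (-1.30), which also count among the immediate-early genes, Id1 (-1.30), an inhibitor of helix-loop-helix factors, and Pparg (-0.98), a nuclear receptor of lipid metabolism. Nr1h3, which encodes the oxysterol receptor LXRα, was the one gene higher (0.76, limma adjusted p = 0.031). It was dim, averaging 4.54 in anti-LIF cells and 3.78 in control cells, below the median gene (4.63 and 4.57). Gata6, which specifies peritoneal resident macrophages and is also made by mesothelial cells, averaged lower (-0.38) without passing (limma adjusted p = 0.13).

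Genes described as targets of these factors were read from lists that share members with each other and with the macrophage markers. Csf1r, Adgre1, Cd68, Fcgr1, Cd14, Lyz2 and Tyrobp are both PU.1 targets and macrophage markers, and C1qa and C1qb both MAF targets and markers. The falls of markers and targets are therefore not separate observations. Over all genes 11.0% were called lower and 5.79% higher. Those shares include dimmer genes and are too low a comparison for target lists of this level. Of 20 PU.1 targets 8 were lower and 1 higher, with a median log2 fold change of -0.47, and 5 were lower without anti-LIF mouse 5, control mouse 2 or control mouse 3. Cd14 (-1.58), Cd68 (-1.41), the Fc receptor gene Fcgr3 (-1.19) and the adaptor gene Tyrobp (-0.88) fell most, and the integrin gene Itgb2 was higher (0.71, limma adjusted p = 0.037). Csf1r, the receptor gene for which PU.1 is best known, had a log2 fold change of -0.33 (limma adjusted p = 0.38). Of 10 genes described as C/EBPβ targets 4 were lower and none higher, with a median of -0.53. Chil3 read 6.01, 6.36, 7.27 and 5.55 in anti-LIF mice, against 8.38, 8.40, 9.81 and 9.26 in control mice, a log2 fold change of -2.67 ± 0.38 (SE, limma adjusted p = 0.0030) with no overlap. Mrc1 (-2.03), Ptgs2 (-1.51) and Arg1 (-1.02) were the others, beside a positive difference in Cebpb itself that did not pass.

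Of 9 genes described as MAF targets 5 were lower and none higher, against 11.0% and 5.79% of all genes. Their median log2 fold change was -0.67. The scavenger receptor gene Cd163 read 5.34, 4.26, 5.38 and 5.23 in anti-LIF mice, against 6.95, 7.25, 7.56 and 6.15 in control mice, and its log2 fold change was -1.93 (limma adjusted p = 0.0046). Mrc1, Lyve1 (-1.49), C1qc (-1.10) and C1qb (-0.64) were lower with it. Il10, the target most often tied to c-MAF, read 5.85 to 6.02 in anti-LIF cells and 5.69 to 6.63 in control cells, a log2 fold change of -0.04 (limma adjusted p = 0.92). Of 7 genes described as KLF2 or KLF4 targets 4 were lower, Mrc1, Arg1, Pparg and the thrombomodulin gene Thbd (-0.65), and the median was -0.65. Timd4 (0.65), Olfml3 (0.58) and Retnla (1.05) had positive differences that did not pass, at limma adjusted p of 0.11, 0.11 and 0.17.

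Of 9 genes of the LIF receptor and STAT3 response 3 were lower and none higher, Junb (-0.59), Il4ra (-0.55) and Il6st (-0.36), which encodes gp130. The median was -0.11, and over all genes 11.0% were called lower and 5.79% higher. Socs3, a feedback inhibitor induced by STAT3, differed by -0.11 (limma adjusted p = 0.70), Stat3 by 0.17 and Lifr by 0.08, and none of these passed. The calls of this list were all lost after quantile normalization again or without control mouse 3, and 1 was left without anti-LIF mouse 7 or control mouse 2.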

How the data were processed

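RNA of CD11b+ cells from 4 anti-LIF and 4 control mice was assayed on 1 array each. The authors normalized the arrays by RMA (done by Progenika), and the deposited values are log2 intensities. R 3.1.2 is listed in the submitters' processing notes. The software for RMA was not given in the sources, nor was a genome build. Of 41345 features, 23521 had 1 gene symbol in the platform annotation, 1820 several and 16004 none. Features of 1 symbol were averaged to 22180 genes, 1082 of them from several features, with no filter on low values. Genes were compared with limma 3.58.1 (lmFit, eBayes) in R 4.3.3, all 8 arrays and no covariate, with Benjamini-Hochberg adjustment over all genes and the study's threshold of 0.1. Exact two-sided permutation tests over 70 assignments were added for the factors. The code was tested on simulated data. P-values set the difference between groups against the spread between the mice of this one experiment, which limma moderates over all genes.

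The factors and gene lists were chosen with earlier results of these data known, and list counts are descriptions. Genes named were all 9 factors, in each list up to 4 called genes with the largest change plus calls against its main direction, and the 3 genes most correlated with each of the 2 called factors that changed most. Other genes were named after their values were seen. Promoters and motifs came from RefSeq (GRCm38.p6). Alternatives were another feature summary, filter, normalization, prior, array weights, a threshold of 0.05 and leaving out each array.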

Additional observations from a re-analysis of the deposited data

Results flagged for a closer look

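In 104 groups of 4 arrays checked (52 genes or features named above), 5 values stood apart from the other 3 arrays of their group by Dixon's criterion at the 95% level. Chance gives about 1 in 20 groups.

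Among the factors, Spi1 in control cells had its highest value, 8.06, in mouse 3 (0.898 of the group's range), and Klf2 in anti-LIF cells had its lowest value, 5.78, in mouse 6 (0.910). Among other genes, Cd163 was lowest at 4.26 in anti-LIF mouse 6, Pcna was highest at 9.40 in control mouse 3, and Spib was lowest at 2.79 in control mouse 1.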

How the results depend on the processing

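No paired analysis was possible because the methods speak of paired samples without naming them and the labels of the groups share no replicate numbers. Klf4 kept its call in all 16 alternatives, and Maf in all but that using its dimmer feature. The factors called lower numbered 2 or 3 in every alternative, and 0 or 1 were higher, the 1 being Klf2 among genes above the median level or without anti-LIF mouse 6, and Cebpb after quantile normalization again or without control mouse 3. The log2 fold change of Cebpa was -0.35 to 0.059 with 1 array left out, with the sign turned (0.059) without anti-LIF mouse 6. Over all genes 1284 were called higher and 2448 lower. The number higher was 674 at an adjusted p under 0.05 and 2038 with each feature on its own, and with 1 array left out 802 to 1357 were higher (802 without control mouse 3, 840 without anti-LIF mouse 7, 844 without control mouse 2) and 1644 to 2445 lower. Calls were higher in 34.4% as deposited, 37.8% after quantile normalization again and 21.6% with arrays centred on their medians, where 884 were higher and 3215 lower. The median of all genes moved by less than 0.1 between these scalings. The groups also differed in spread, with an array SD of 1.95 to 1.97 in anti-LIF arrays and 2.02 to 2.07 in control arrays. Quantile normalization again, which gives every array the same spread, left 1093 genes higher and 1798 lower. The part of this difference in spread in the calls was not tested.

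Among the relatives, 21 lower genes became 13 after quantile normalization again and 10 at an adjusted p under 0.05, and 9 to 19 with 1 array left out (9 without control mouse 2, 11 without anti-LIF mouse 7 or 8, 12 without control mouse 3, 13 without anti-LIF mouse 6). STAT3 response genes called lower numbered 0 after quantile normalization again and 0 to 3 with 1 array left out (0 without control mouse 3, 1 without anti-LIF mouse 7 or control mouse 2). With 1 array left out, PU.1 targets called lower ranged from 5 to 8 and macrophage markers from 4 to 7, both lowest without anti-LIF mouse 5 or control mouse 2 or 3, and 10 PU.1 targets were lower with arrays centred on their medians. With 1 array left out, immediate-early genes ranged from 10 to 13, subset factors from 9 to 11, C/EBPβ targets from 4 to 5, MAF targets from 4 to 6, KLF targets from 3 to 4 and higher proliferation genes from 2 to 4. No fit compared batches, and 4 arrays a group with a median SE of 0.156 limit what could be called.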

Other observations

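Of 9 proliferation genes 3 were higher in anti-LIF cells, 1 was lower and 5 did not pass. The higher ones were Top2a (log2 fold change 0.67, limma adjusted p = 0.011), Mki67 (0.59, adjusted p = 0.032) and Mcm5 (0.51, adjusted p = 0.068), and the lower one was Pcna (-0.45, adjusted p = 0.088). The median over the 9 was 0.31, and over all genes 5.79% were called higher and 11.0% lower. Top2a read 6.83, 6.89, 6.62 and 6.72 in anti-LIF mice, against 6.29, 5.95, 5.90 and 6.22 in control mice, with no overlap. The cell type in which these genes were active is not given by the arrays.

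Lif itself, the target of the antibody, read 4.85 to 4.98 in anti-LIF cells and 5.16 to 5.84 in control cells, a log2 fold change of -0.58 (limma adjusted p = 0.044). An antibody binds the protein, so this value is no check of the treatment.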
